A study of Mus musculus with 16 samples.

Results

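The response of Dgcr8 knockout mouse embryonic stem cells to 48 h of differentiation was set against that of wild-type cells, gene by gene. The measure was the interaction: the 48 h change in knockout cells minus the 48 h change in wild-type cells, both on the log2(FPKM + 1) scale. A positive interaction means that the knockout rose further or fell less than wild type, and a negative interaction the reverse. Entries of the deposited expression table entered if they reached 1 FPKM in 2 or more of the 8 polyA RNA libraries, which kept 13172 of 41258 entries. Nearest to this threshold, the second-highest library held 1.00006 FPKM for Gm11889, which was kept, and 0.999971 FPKM for Tuba3b, which was not.

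The 4 groups were Dgcr8-/- cells at 48 h in N2B27 with bFGF and KSR, Dgcr8-/- cells in 2iL, wild-type cells at 48 h in the same differentiation medium, and wild-type cells in 2iL. 2iL is a medium with LIF and inhibitors of MEK and GSK3 that holds mouse embryonic stem cells in the naive state. Each group held 2 libraries, described as biological replicates. Both genotypes were of a mixed 129/C57BL/6 background in the same passage range. The knockout was represented by a single line, labelled ES1, and wild type by a single line, named v65 in the deposited table, so genotype and cell line cannot be told apart in any value below.

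Dgcr8 is the RNA-binding partner of the nuclease Drosha, and together they cut most miRNA precursors out of their primary transcripts. Cells without Dgcr8 therefore lack most miRNAs, among them those of the miR-290 and miR-302 clusters. On leaving 2iL, mouse embryonic stem cells switch off naive transcription factors such as Nanog, Esrrb and Klf4 and switch on formative genes such as Otx2, Pou3f1 and the de novo DNA methyltransferases. The title of the series names the miR-290/302 family as promoting this dismantling of the naive state, and the interaction asks where the response of miRNA-deficient cells departs from that of wild type.

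The miRNAs that name the study are shown with the 7-base seed, bases 2 to 8 from the 5′ end, in capitals, because that shared seed is what makes them a family. Sequences are from RefSeq, build GRCm38.p6, and all 5 arms were found there. The miR-302b-3p arm lies at chr3:127545275-127545297 and miR-302d-3p at chr3:127545665-127545687. The miR-290 cluster arms lie at chr7:3218968-3218989, chr7:3220691-3220712 and chr7:3220815-3220837, in the order in which they are printed. All 5 are on the + strand.
mmu-miR-302b-3p: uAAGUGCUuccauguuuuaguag
mmu-miR-302d-3p: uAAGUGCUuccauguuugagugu
mmu-miR-291a-3p: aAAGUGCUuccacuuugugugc
mmu-miR-294-3p: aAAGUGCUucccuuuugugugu
mmu-miR-295-3p: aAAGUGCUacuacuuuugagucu
In the wild-type small RNA libraries of the series, these 5 arms summed to 14.0% and 12.2% of the deposited signal at 48 h, against 10.4% and 11.1% in 2iL. The sum covers these 5 arms and leaves out miR-302a-3p. The miR-302b-3p arm held 4.67% and 4.13% of the signal at 48 h, against 1.13% and 1.28% in 2iL, and the miR-294-3p arm 2.05% and 1.73% of the signal at 48 h, against 2.800% and 2.99% in 2iL. These arms were present in wild type at both ends of the course. The 2 miR-302 arms together were higher and the 3 miR-290 cluster arms together lower at 48 h than in 2iL. All 8 small RNA libraries of the series are wild type, so small RNA of the knockout could not be examined.

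The targeted gene checked the labels. Dgcr8 measured 7.84 and 7.799 FPKM in knockout cells at 48 h and 9.11 and 9.33 FPKM in knockout 2iL cells, against 20.7 and 20.9 FPKM in wild-type cells at 48 h and 18.3 and 19.2 FPKM in wild-type 2iL cells. All 4 knockout libraries lay below all 4 wild-type libraries. FPKM is given per gene, and the deleted part of Dgcr8 is not given in the sources used here. Dgcr8 itself rose in wild type and fell in the knockout, with an interaction of −0.36, SE 0.07, adjusted p = 0.0075. Libraries summed to 475271 to 548453 FPKM and held 11415 to 12030 genes of at least 1 FPKM. The read depth is unknown, and the Pearson correlation between replicates was 0.987 to 0.991 across the tested genes, a description over genes. As a check on the cell type, the pluripotency factor Pou5f1 measured 874 and 821 FPKM in knockout cells at 48 h and 969 and 990.2 FPKM in knockout 2iL cells, against 738 and 695 FPKM in wild-type cells at 48 h and 905 and 918 FPKM in wild-type 2iL cells, high in all 8 libraries.

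Of the 13172 genes tested with limma, 5641 were called for the interaction at an adjusted p below 0.05, which is 42.8% of all tested. The knockout change was the higher in 2783 of them (21.1% of tested) and the lower in 2858 (21.7%). An interaction of at least 1 log2 unit, a 2-fold difference between the changes, was called for 1649 genes (12.5%), with 828 higher (6.29%) and 821 lower (6.23%). A single number in parentheses after a gene is its interaction in log2 units unless another quantity is named. The median standard error of an interaction was 0.125. For all 5641 called genes the sign was the same in each of the 16 ways of taking 1 library per group. With 2 libraries per group the call itself ensures this, so it is no separate check on the replicates. Across all tested genes the changes of the 2 genotypes had a Pearson correlation of 0.456, a description over genes that share libraries, and an SD of 0.64 in the knockout and 0.783 in wild type.

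The called genes were divided by whether the 48 h change itself was called in each genotype. The largest class, 1938 genes (34.4% of the called), changed in wild type with no call in the knockout. A further 1220 (21.6%) changed in the knockout with no call in wild type. Opposite changes were called in 874 genes (15.5%), and these made up 28.5% of the interactions of at least 1. Opposite changes add in size in the interaction, so the higher share follows in part from how the class is defined. The genotypes moved the same way in the rest, 955 genes with the larger change in wild type and 517 with the larger change in the knockout, apart from 137 genes with no call in either genotype. Over all tested genes the 48 h change was called in 48.3% in the knockout and 56.5% in wild type. Without wild-type 48 h replicate 2, the class changed in wild type alone held 1288 genes. The class with the larger shared change in the knockout held 298, 302 and 341 genes without wild-type 48 h replicate 1, wild-type 48 h replicate 2 and wild-type 2iL replicate 1. A missing call does not show that a gene stayed level. The 95% interval of the uncalled change lay within 0.5 log2 units of 0 for 925 of the 1123 rises and 691 of the 815 falls seen in wild type, and for 550 of 655 rises and 487 of 565 falls seen in the knockout.

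**Figure D1:**
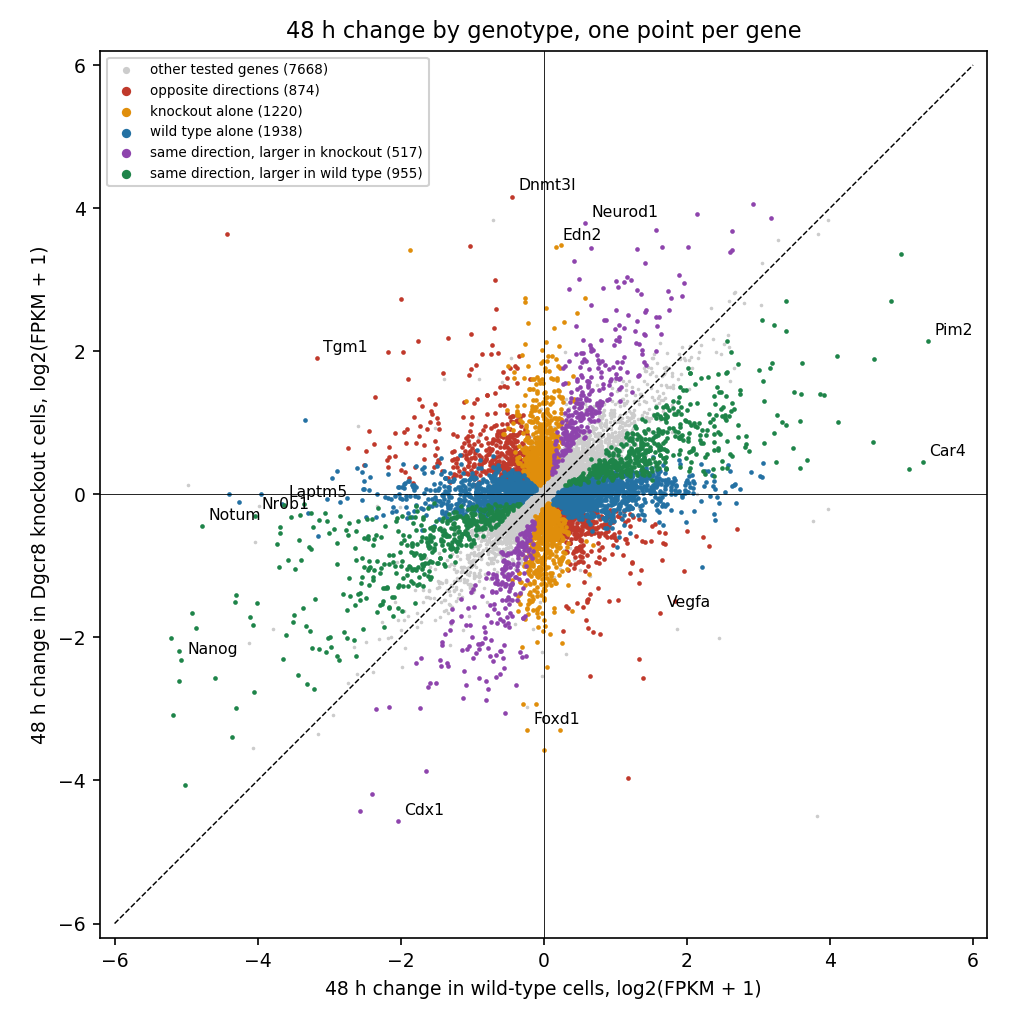
Each point is a gene, placed by its 48 h change in wild-type cells (x axis) and in Dgcr8 knockout cells (y axis), in log2(FPKM + 1) units; colours give the interaction class, grey points were not called or had no call in either genotype, the dashed line marks equal changes, and 4 genes lie outside the axes. Opposite changes (874 genes) fill the upper left and lower right, and the 1938 wild-type changes without a knockout call lie along the horizontal axis.

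Among genes that fell in wild type and rose in the knockout, the epidermal transglutaminase Tgm1 measured 6.44 and 7.29 FPKM in knockout cells at 48 h and 0.944 and 1.26 FPKM in knockout 2iL cells, against 1.403 and 1.67 FPKM in wild-type cells at 48 h and 21.6 and 22.1 FPKM in wild-type 2iL cells. Aire, a transcriptional regulator known from the thymus, measured 17.9 and 17.9 FPKM in knockout cells at 48 h and 1.88 and 1.84 FPKM in knockout 2iL cells, against 1.53 and 1.53 FPKM in wild-type cells at 48 h and 8.48 and 9.78 FPKM in wild-type 2iL cells. Dnmt3l, the catalytically inactive cofactor of the de novo DNA methyltransferases, measured 209 and 214 FPKM in knockout cells at 48 h and 10.5 and 11.3 FPKM in knockout 2iL cells, against 90.2 and 90.1 FPKM in wild-type cells at 48 h and 131 and 115 FPKM in wild-type 2iL cells. In each of the 3, wild type started above the knockout in 2iL and ended below it at 48 h, and no 2 groups overlapped. The interaction was 5.08, SE 0.15, adjusted p = 1.7e-06 for Tgm1, 4.72, SE 0.12, adjusted p = 1.1e-06 for Aire and 4.60, SE 0.09, adjusted p = 6.2e-07 for Dnmt3l. In bulk RNA, fewer expressing cells and less RNA per cell cannot be told apart.

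The reverse pattern, a rise in wild type with a fall in the knockout, was called in 366 genes, against 508 of the first kind. Vegfa, the growth factor of blood vessels, measured 2.55 and 2.17 FPKM in knockout cells at 48 h and 8.21 and 11.3 FPKM in knockout 2iL cells, against 34.3 and 39.9 FPKM in wild-type cells at 48 h and 10.9 and 11.6 FPKM in wild-type 2iL cells. The 2iL levels of the genotypes overlapped, and at 48 h every knockout library was below every wild-type library. Rab25, a small GTPase of epithelial recycling endosomes, measured 1.597 and 1.87 FPKM in knockout cells at 48 h and 3.53 and 2.21 FPKM in knockout 2iL cells, against 20.9 and 20.2 FPKM in wild-type cells at 48 h and 2.23 and 2.41 FPKM in wild-type 2iL cells. Tmem181a measured 1.62 and 1.35 FPKM in knockout cells at 48 h and 13.5 and 13.7 FPKM in knockout 2iL cells, against 4.83 and 4.54 FPKM in wild-type cells at 48 h and 1.19 and 1.15 FPKM in wild-type 2iL cells, and its reads may be shared with a near-identical copy. The interaction was −3.30, SE 0.20, adjusted p = 3.3e-05 for Vegfa, −3.18, SE 0.22, adjusted p = 5.5e-05 for Rab25 and −3.95, SE 0.12, adjusted p = 1.9e-06 for Tmem181a. For Rab25 the 48 h change was −0.48 in the knockout, against 2.70 in wild type.

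**Figure D2:**
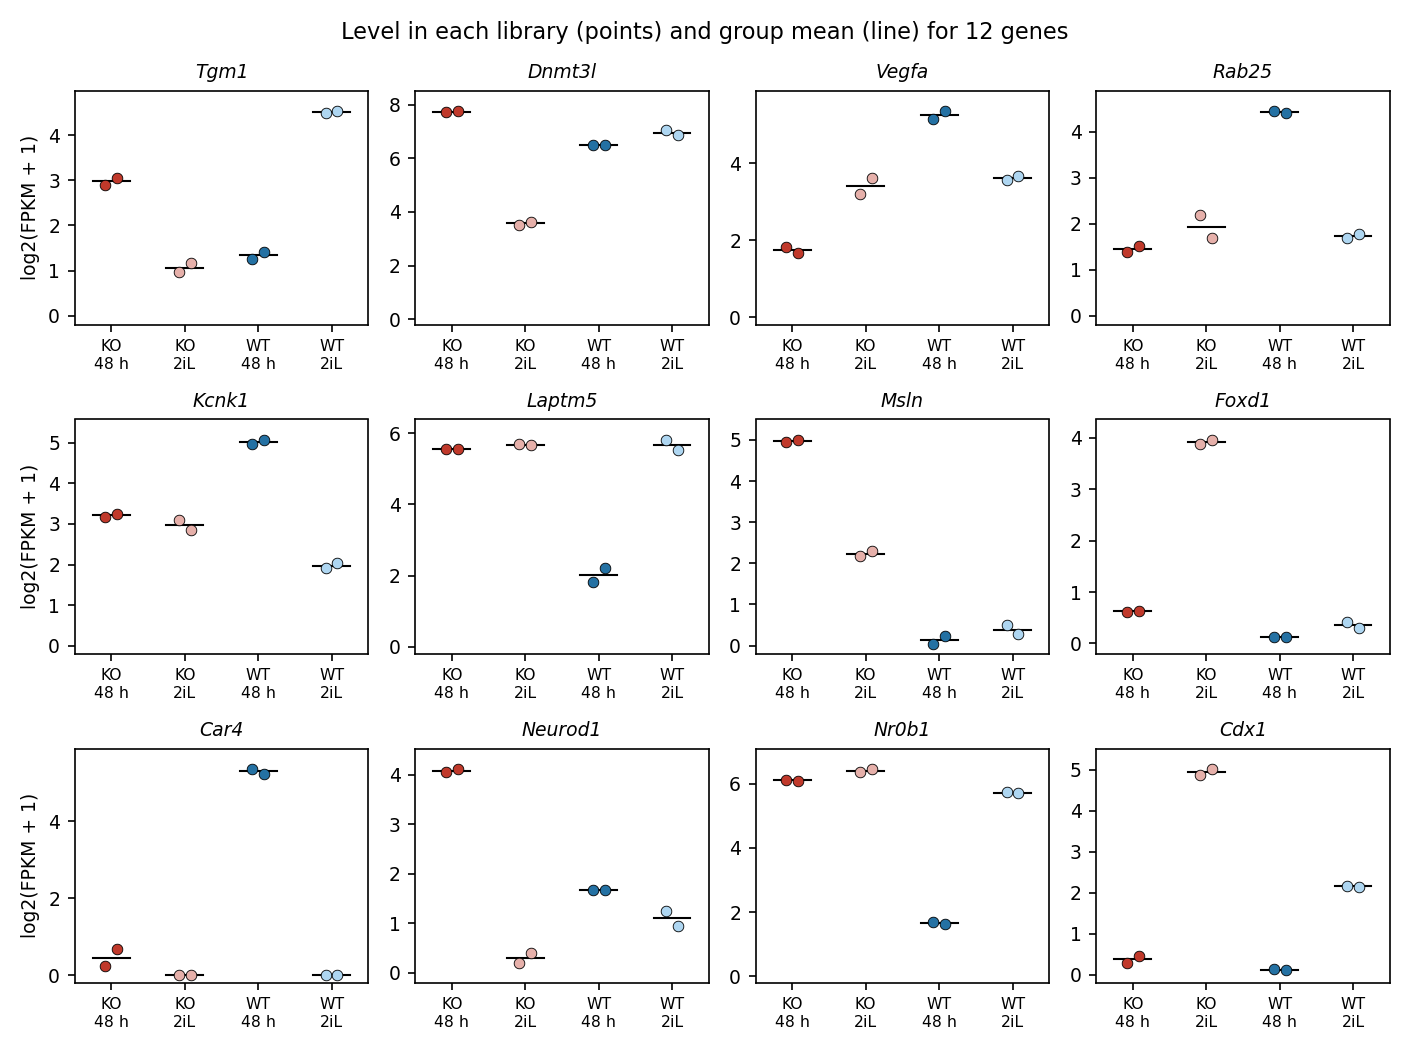
Levels of 12 genes in log2(FPKM + 1), with 1 point per library and a line at the group mean; KO is Dgcr8 knockout and WT wild type. Tgm1 and Dnmt3l cross over between 2iL and 48 h, Vegfa and Rab25 part at 48 h, and Laptm5 and Nr0b1 leave wild type at 48 h as the single low group.

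Rises seen in wild type without a call in the knockout numbered 1123, with a median change of 0.00 in the knockout and 0.68 in wild type. Kcnk1, a potassium leak channel, measured 8.05 and 8.55 FPKM in knockout cells at 48 h and 7.496 and 6.22 FPKM in knockout 2iL cells, against 30.5 and 32.6 FPKM in wild-type cells at 48 h and 2.76 and 3.12 FPKM in wild-type 2iL cells. Pkdcc, a secreted tyrosine kinase, measured 0.397 and 0.448 FPKM in knockout cells at 48 h and 0.580 and 0.509 FPKM in knockout 2iL cells, against 7.76 and 6.696 FPKM in wild-type cells at 48 h and 0.333 and 0.232 FPKM in wild-type 2iL cells. The tetraspanin gene Tspan7 measured 0.534 and 0.187 FPKM in knockout cells at 48 h and 0.154 and 0.104 FPKM in knockout 2iL cells, against 15.5 and 16.6 FPKM in wild-type cells at 48 h and 1.22 and 0.992 FPKM in wild-type 2iL cells. Wild type at 48 h was the high group in all 3, and the 48 h change in the knockout was 0.25 for Kcnk1, −0.12 for Pkdcc and 0.26 for Tspan7. The interaction was −2.80, SE 0.14, adjusted p = 1.2e-05 for Kcnk1, −2.80 (SE 0.14) for Pkdcc and −2.76 (SE 0.19) for Tspan7.

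Falls seen in wild type without a call in the knockout numbered 815. Laptm5, a lysosomal membrane protein known from blood cells, measured 45.8 and 46.3 FPKM in knockout cells at 48 h and 50.6 and 50.4 FPKM in knockout 2iL cells, against 2.51 and 3.64 FPKM in wild-type cells at 48 h and 55.1 and 45.3 FPKM in wild-type 2iL cells. The sulfotransferase gene Sult6b1 measured 7.303 and 8.84 FPKM in knockout cells at 48 h and 6.35 and 6.13 FPKM in knockout 2iL cells, against 1.08 and 1.57 FPKM in wild-type cells at 48 h and 15.5 and 16.7 FPKM in wild-type 2iL cells. Klk10, of the kallikrein protease family, measured 4.32 and 4.77 FPKM in knockout cells at 48 h and 3.73 and 3.76 FPKM in knockout 2iL cells, against 0.168 and 0.242 FPKM in wild-type cells at 48 h and 9.09 and 7.78 FPKM in wild-type 2iL cells. In wild type all 3 lost most of their 2iL level by 48 h, while the knockout changed by −0.13, 0.32 and 0.22 log2 units, in that order of genes. The interaction was 3.53, SE 0.19, adjusted p = 1.9e-05 for Laptm5, 3.21 (SE 0.18) for Sult6b1 and 3.19 (SE 0.14) for Klk10.

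In the knockout without a call in wild type, 655 genes rose and 565 fell. The vasoactive peptide gene Edn2 measured 14.8 and 11.8 FPKM in knockout cells at 48 h and 0.281 and 0.294 FPKM in knockout 2iL cells, against 0.192 and 0.158 FPKM in wild-type cells at 48 h and 0.0845 and 0 FPKM in wild-type 2iL cells. Msln, a cell-surface protein of mesothelium, measured 30.03 and 30.9 FPKM in knockout cells at 48 h and 3.54 and 3.900 FPKM in knockout 2iL cells, against 0.0254 and 0.168 FPKM in wild-type cells at 48 h and 0.420 and 0.206 FPKM in wild-type 2iL cells. Hes3, a repressor of the Hes family, measured 5.86 and 6.097 FPKM in knockout cells at 48 h and 0.146 and 0.0327 FPKM in knockout 2iL cells, against 0.179 and 0.0984 FPKM in wild-type cells at 48 h and 0.492 and 0.242 FPKM in wild-type 2iL cells. Knockout libraries at 48 h stood above all other libraries for these genes, and wild type stayed under 1 FPKM throughout. The interaction was 3.29, SE 0.17, adjusted p = 1.4e-05 for Edn2, 3.0 (SE 0.16) for Msln and 2.94 (SE 0.17) for Hes3.

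Among falls of this kind, the forkhead factor Foxd1 measured 0.535 and 0.551 FPKM in knockout cells at 48 h and 13.8 and 14.5 FPKM in knockout 2iL cells, against 0.0861 and 0.0889 FPKM in wild-type cells at 48 h and 0.332 and 0.225 FPKM in wild-type 2iL cells. Chd3, a chromatin remodeller of the NuRD complex, measured 3.72 and 4.395 FPKM in knockout cells at 48 h and 36.3 and 38.98 FPKM in knockout 2iL cells, against 9.31 and 9.04 FPKM in wild-type cells at 48 h and 10.3 and 9.599 FPKM in wild-type 2iL cells. Slc16a9, of the monocarboxylate transporter family, measured 0.958 and 0.934 FPKM in knockout cells at 48 h and 12.5 and 15.3 FPKM in knockout 2iL cells, against 0.154 and 0.126 FPKM in wild-type cells at 48 h and 0.292 and 0.490 FPKM in wild-type 2iL cells. For these genes it was the knockout in 2iL that stood apart as the high group. The interaction was −3.06, SE 0.13, adjusted p = 6.3e-06 for Foxd1, −2.83 (SE 0.12) for Chd3 and −2.65 (SE 0.17) for Slc16a9.

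Where both genotypes rose, wild type rose further in 506 genes and the knockout in 287. Car4, a membrane-bound carbonic anhydrase, measured 0.169 and 0.587 FPKM in knockout cells at 48 h and 0 and 0 FPKM in knockout 2iL cells, against 40.1 and 36.9 FPKM in wild-type cells at 48 h and 0 and 0 FPKM in wild-type 2iL cells. Tmem54, a membrane protein gene, measured 0.220 and 0.436 FPKM in knockout cells at 48 h and 0 and 0.0667 FPKM in knockout 2iL cells, against 37.8 and 33.6 FPKM in wild-type cells at 48 h and 0.0672 and 0.0706 FPKM in wild-type 2iL cells. Myl9, the regulatory light chain of myosin in contractile cells, measured 1.27 and 0.916 FPKM in knockout cells at 48 h and 0.136 and 0.383 FPKM in knockout 2iL cells, against 31.8 and 28.8 FPKM in wild-type cells at 48 h and 0.245 and 0.331 FPKM in wild-type 2iL cells. The knockout libraries of these genes held at most 1.27 FPKM, and wild type at 48 h was the high group. Car4 was listed at 0 in every 2iL library. The interaction was −4.86, SE 0.20, adjusted p = 7.1e-06 for Car4, −4.74 (SE 0.16) for Tmem54 and −3.87 (SE 0.19) for Myl9.

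With the larger rise in the knockout, the proneural factor Neurod1 measured 15.6 and 16.4 FPKM in knockout cells at 48 h and 0.141 and 0.317 FPKM in knockout 2iL cells, against 2.17 and 2.21 FPKM in wild-type cells at 48 h and 1.39 and 0.918 FPKM in wild-type 2iL cells. The keratin gene Krt19 measured 44.2 and 40.5 FPKM in knockout cells at 48 h and 2.93 and 3.04 FPKM in knockout 2iL cells, against 1.45 and 1.27 FPKM in wild-type cells at 48 h and 0.637 and 0.364 FPKM in wild-type 2iL cells. The knockout at 48 h was the high group for both, and wild type stayed under 3 FPKM. The interaction was 3.22, SE 0.18, adjusted p = 2.1e-05 for Neurod1 and 2.79 (SE 0.15) for Krt19.

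Shared falls were larger in wild type for 449 genes and larger in the knockout for 230. Notum, a secreted enzyme that inactivates WNT ligands, measured 177 and 159 FPKM in knockout cells at 48 h and 221 and 236 FPKM in knockout 2iL cells, against 1.14 and 0.682 FPKM in wild-type cells at 48 h and 49.9 and 51.98 FPKM in wild-type 2iL cells. Nr0b1, a nuclear receptor of the naive network, measured 68.3 and 67.1 FPKM in knockout cells at 48 h and 80.8 and 86.3 FPKM in knockout 2iL cells, against 2.26 and 2.12 FPKM in wild-type cells at 48 h and 51.9 and 50.9 FPKM in wild-type 2iL cells. Manba, a lysosomal mannosidase, measured 109 and 113 FPKM in knockout cells at 48 h and 122 and 124 FPKM in knockout 2iL cells, against 5.02 and 5.41 FPKM in wild-type cells at 48 h and 76.6 and 74.8 FPKM in wild-type 2iL cells. In wild type these genes lost most of their level, while the knockout kept the greater part. The interaction was 4.33, SE 0.16, adjusted p = 3.8e-06 for Notum, 3.74 (SE 0.07) for Nr0b1 and 3.48 (SE 0.07) for Manba. Notum shows what the log scale does: its fold loss was larger in wild type, but in FPKM units the knockout lost more. Such a turn of sign between the scales was found for 165 of the called genes (2.93%), 113 of them in this class.

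The larger fall was in the knockout for the homeobox gene Cdx1, which measured 0.218 and 0.369 FPKM in knockout cells at 48 h and 28.1 and 31.3 FPKM in knockout 2iL cells, against 0.0939 and 0.0775 FPKM in wild-type cells at 48 h and 3.48 and 3.42 FPKM in wild-type 2iL cells. Grin1, a subunit of the NMDA glutamate receptor, measured 0.543 and 0.823 FPKM in knockout cells at 48 h and 12.96 and 12.96 FPKM in knockout 2iL cells, against 0.0676 and 0.128 FPKM in wild-type cells at 48 h and 0.706 and 0.507 FPKM in wild-type 2iL cells. AA467197 measured 0.318 and 0.708 FPKM in knockout cells at 48 h and 20.5 and 21.3 FPKM in knockout 2iL cells, against 0.259 and 0.133 FPKM in wild-type cells at 48 h and 2.44 and 3.08 FPKM in wild-type 2iL cells. All 3 started far higher in the knockout than in wild type and were under 1 FPKM in both genotypes at 48 h. The interaction was −2.53, SE 0.13, adjusted p = 1.7e-05 for Cdx1, −2.51 (SE 0.16) for Grin1 and −2.22 (SE 0.21) for AA467197.

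An interaction is also the change of the difference between the genotypes, so each called gene can be described by when that difference was present. The difference was called at 48 h and not in 2iL for 1691 genes (30%), and called at both and wider at 48 h for 1634 (29%). It was called in 2iL and no longer at 48 h for 895 (15.9%), and narrowed for 664 (11.8%). It turned round for 726 (12.9%). Leaving out 1 library brought the narrowed class to 351 to 399 genes for each of the 48 h libraries, and the class called at 48 h alone to 1117 genes without wild-type 48 h replicate 2. The antagonist of NODAL Lefty2 measured 2.41 and 1.73 FPKM in knockout cells at 48 h and 5.21 and 5.38 FPKM in knockout 2iL cells, against 2.53 and 2.47 FPKM in wild-type cells at 48 h and 36.7 and 39.01 FPKM in wild-type 2iL cells, so a difference of −2.63 log2 units in 2iL was −0.20 at 48 h. Rhox5, an X-linked homeobox gene, measured 48.2 and 51.3 FPKM in knockout cells at 48 h and 5.400 and 5.23 FPKM in knockout 2iL cells, against 231 and 229 FPKM in wild-type cells at 48 h and 168 and 159.7 FPKM in wild-type 2iL cells, and its difference narrowed to −2.19 at 48 h, against −4.71 in 2iL. For Rhox5 too the sign depends on the scale, since its rise in FPKM units was larger in wild type. As background to these shares, 71.8% of all tested genes differed between the genotypes at 48 h and 63.4% in 2iL.

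**Figure D3:**
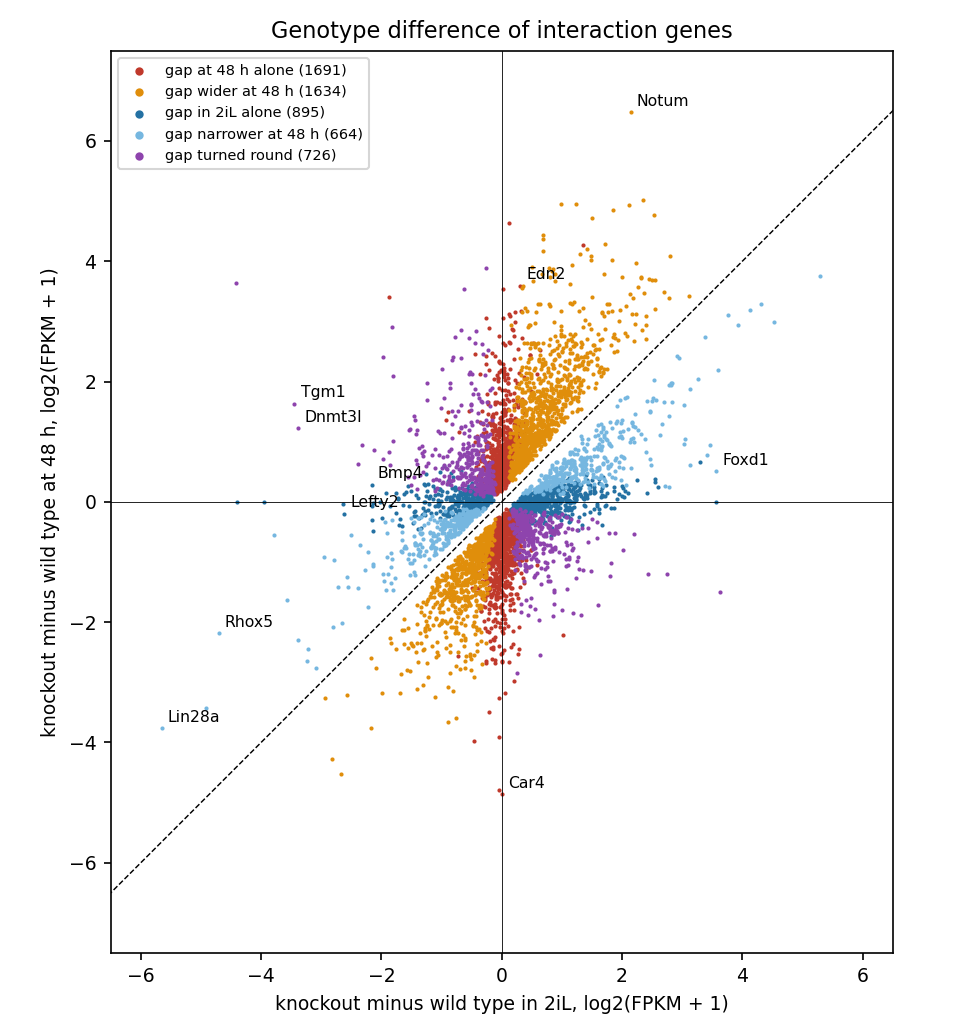
Genes called for the interaction, placed by the knockout minus wild-type difference in 2iL (x axis) and at 48 h (y axis), in log2(FPKM + 1) units, and coloured by when that difference was called; 31 genes without a call at either time are not drawn and 2 lie outside the axes. Points near the vertical axis differed at 48 h alone, points near the horizontal axis in 2iL alone, and Tgm1 and Dnmt3l lie in the area where the difference turned round.

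Most naive pluripotency genes fell less in the knockout than in wild type. Of 19 measured list members, 16 were called higher and 1 lower, against 21.1% and 21.7% of all genes tested. The median interaction was 2.09, against −0.01 over all genes tested. Esrrb, an orphan nuclear receptor of the naive network, measured 52.02 and 47.2 FPKM in knockout cells at 48 h and 178 and 188 FPKM in knockout 2iL cells, against 5.53 and 4.17 FPKM in wild-type cells at 48 h and 167 and 169.9 FPKM in wild-type 2iL cells. Both genotypes fell, and the knockout at 48 h lay between wild type at 48 h and the 2iL groups. The interaction was 3.0, SE 0.15, adjusted p = 1.3e-05 for Esrrb, 3.20 for the AKT cofactor Tcl1, 2.78 for Klf2, 2.76 for the zinc-finger gene Zfp42 (Rex1), 2.75 for Nanog and 2.68 for the nuclear receptor Nr5a2.

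The naive list was not uniform. Fbxo15 (knockout change 0.05) and the adhesion gene Pecam1 (knockout change 0.06) fell in wild type with no call in the knockout, with interactions of 2.5 and 1.65. Smaller interactions were called for Klf5 (1.09), the threonine dehydrogenase Tdh (1.20), Prdm14 (1.08) and Fgf4 (0.68), and that of Prdm14 was −0.051 and not called with a pseudocount of 5. Tbx3 (0.52, adjusted p = 0.058) and Gbx2 (0.23, adjusted p = 0.2) were not called. Dppa3, a maternal factor that protects DNA methylation, was the exception. It measured 15.5 and 15.7 FPKM in knockout cells at 48 h and 53.2 and 60.3 FPKM in knockout 2iL cells, against 21.3 and 20.4 FPKM in wild-type cells at 48 h and 32.8 and 27.3 FPKM in wild-type 2iL cells, with the larger fall in the knockout (interaction −1.30, SE 0.13, adjusted p = 3.0e-04).

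**Figure D4:**
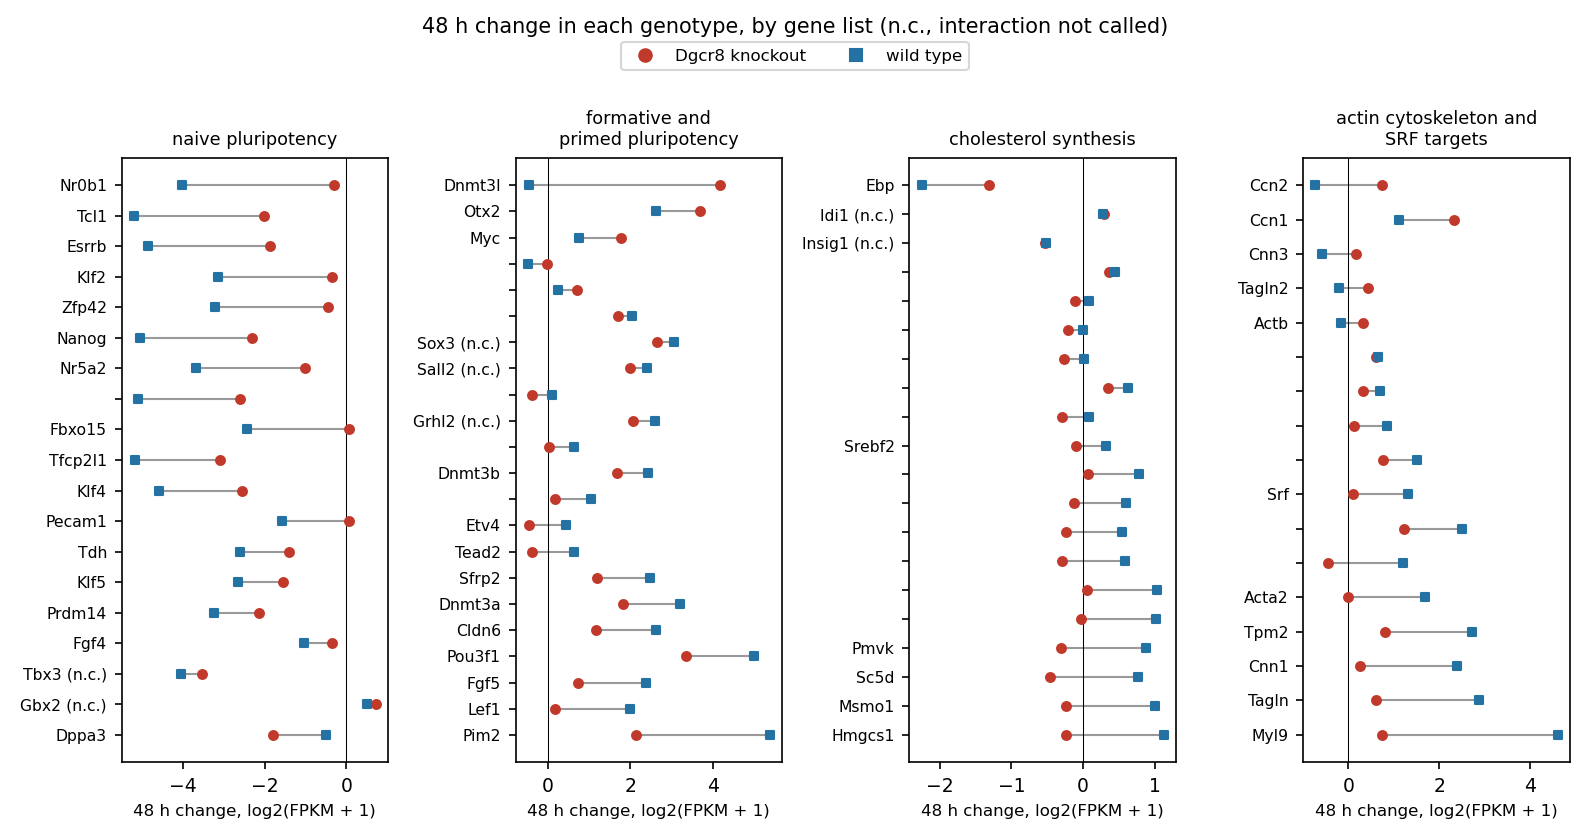
Change from 2iL to 48 h in log2(FPKM + 1) for each measured member of 4 gene lists, with the Dgcr8 knockout as circles and wild type as squares, ordered by the interaction, and names beside the members described in the text. In the naive list 14 of 19 members fell in both genotypes with the larger fall in wild type, and cholesterol synthesis genes such as Hmgcs1 and Pmvk lie right of 0 in wild type and left of it in the knockout.

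Of the factors shared by naive and formative cells, 6 of 10 were called higher and 0 lower (median 0.71), against 21.1% higher and 21.7% lower among all genes tested. Sox2 measured 179 and 168 FPKM in knockout cells at 48 h and 239 and 256 FPKM in knockout 2iL cells, against 30.2 and 31.1 FPKM in wild-type cells at 48 h and 125 and 134 FPKM in wild-type 2iL cells, with falls in both genotypes and the larger in wild type (interaction 1.53, SE 0.08, adjusted p = 1.5e-05). Lin28a, the RNA-binding repressor of let-7 maturation, measured 17.02 and 15.6 FPKM in knockout cells at 48 h and 1.05 and 1.15 FPKM in knockout 2iL cells, against 237 and 232 FPKM in wild-type cells at 48 h and 110.0 and 99.6 FPKM in wild-type 2iL cells. Its fold rise was larger in the knockout (interaction 1.89, SE 0.09, adjusted p = 1.3e-05), although all knockout libraries stayed below every wild-type library and its rise in FPKM units was larger in wild type. Tdgf1, the NODAL co-receptor, had an interaction of 1.0. Pou5f1 (0.14, adjusted p = 0.15), Sall4 (−0.03) and Utf1 (0.17) were not called.

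Formative genes were mostly lower in the interaction, with 14 of 22 called lower and 5 higher (median −0.68), against 21.7% lower and 21.1% higher among all genes tested. The kinase gene Pim2 measured 51.01 and 50.6 FPKM in knockout cells at 48 h and 9.78 and 11.7 FPKM in knockout 2iL cells, against 465 and 469 FPKM in wild-type cells at 48 h and 11.2 and 9.45 FPKM in wild-type 2iL cells. It rose in both genotypes and far more in wild type (interaction −3.23, SE 0.13, adjusted p = 6.7e-06). The POU factor Pou3f1 had an interaction of −1.64, the growth factor Fgf5 −1.65, the claudin Cldn6 −1.45 and the WNT antagonist Sfrp2 −1.28. Cldn6 and Sfrp2 were no longer called with a pseudocount of 0.1. The TCF-family factor Lef1 rose in wild type with a knockout change of 0.17 (interaction −1.82, SE 0.09, adjusted p = 1.2e-05). Tead2, a Hippo-pathway factor, fell in the knockout (change −0.38) and rose in wild type (0.62). Against this direction, Otx2 measured 41.2 and 38 FPKM in knockout cells at 48 h and 2.21 and 2.11 FPKM in knockout 2iL cells, against 26.9 and 26.7 FPKM in wild-type cells at 48 h and 3.71 and 3.300 FPKM in wild-type 2iL cells, with the larger rise in the knockout (interaction 1.05, SE 0.10, adjusted p = 2.2e-04). Grhl2 (−0.53), Sall2 (−0.42) and Sox3 (−0.39) rose in both genotypes without a called interaction.

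The DNA methylation enzymes divided. Of 13 list members 4 were called higher and 4 lower (median 0.02), against 21.1% higher and 21.7% lower among all genes tested. The de novo methyltransferases rose further in wild type, with an interaction of −1.36 for Dnmt3a and −0.75 for Dnmt3b, whereas their cofactor Dnmt3l went the other way, as given above. Tet2, which oxidises 5-methylcytosine, measured 9.82 and 10.5 FPKM in knockout cells at 48 h and 20.5 and 18.8 FPKM in knockout 2iL cells, against 0.884 and 1.005 FPKM in wild-type cells at 48 h and 10.3 and 10.3 FPKM in wild-type 2iL cells. It fell in both genotypes and more in wild type (interaction 1.65, SE 0.10, adjusted p = 3.7e-05). Tet1 rose in the knockout (change 0.39) and fell in wild type (−0.64). The maintenance methyltransferase Dnmt1 was not called (0.11, adjusted p = 0.23).

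Of the LIF/STAT3 pathway, 8 of 12 members were called higher and 1 lower (median 0.60), against 21.1% higher and 21.7% lower among all genes tested. The LIF receptor gene Lifr measured 11.7 and 12.3 FPKM in knockout cells at 48 h and 11.99 and 10.3 FPKM in knockout 2iL cells, against 1.47 and 1.47 FPKM in wild-type cells at 48 h and 8.87 and 8.66 FPKM in wild-type 2iL cells. It fell in wild type with no call in the knockout (interaction 2.09, SE 0.12, adjusted p = 2.1e-05). Stat3 (0.72) and its feedback inhibitor Socs3 (0.92) fell in both genotypes and more in wild type. Klf4 (2.02) and Tfcp2l1 (2.09) are also in the naive list. The kinase gene Pim1 was called lower (−0.43).

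ERK feedback and response genes showed no common direction, with 4 called higher and 5 lower of 16 (median −0.15). Among all genes tested 21.1% were higher and 21.7% lower. Dusp4, a phosphatase that dampens ERK, measured 5.44 and 5.82 FPKM in knockout cells at 48 h and 2.06 and 2.55 FPKM in knockout 2iL cells, against 45.9 and 47.1 FPKM in wild-type cells at 48 h and 1.71 and 1.805 FPKM in wild-type 2iL cells. Its rise was larger in wild type (interaction −3.10, SE 0.12, adjusted p = 5.9e-06). The related phosphatase Dusp6 rose in both genotypes and was not called (−0.20, adjusted p = 0.11), nor were Spry2 (0.09) and Spry4 (−0.21). Etv4 rose in wild type and fell in the knockout (−0.91). The early response gene Ier3 did the reverse (1.48), and Myc rose further in the knockout (1.01). Of the FGF ligands, Fgf15 rose in wild type with no call in the knockout (interaction −1.83, SE 0.15, adjusted p = 1.0e-04), and Fgf17 measured 0.518 and 0.866 FPKM in knockout cells at 48 h and 0.279 and 0.357 FPKM in knockout 2iL cells, against 2.45 and 1.91 FPKM in wild-type cells at 48 h and 8.804 and 9.77 FPKM in wild-type 2iL cells. Fgf17 fell in wild type with no call in the knockout (interaction 2.05, SE 0.19, adjusted p = 2.0e-04). Fgf1 rose in the knockout with no call in wild type (interaction 2.04, SE 0.27, adjusted p = 9.3e-04).

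WNT targets and TCF factors were mostly lower, 8 of 12 with 1 higher, and a median of −0.82, against 21.7% lower and 21.1% higher among all genes tested. Without wild-type 48 h replicate 2, 5 were called lower. On the log2(FPKM + 1) scale Cdx1 and the zinc-finger gene Sp5 fell in both genotypes and further in the knockout, where they started higher. Without the added 1, the fold loss of Sp5 by group means was larger in wild type, at 0.0256 and 0.0422 FPKM at 48 h. Sp5 measured 0.229 and 0.201 FPKM in knockout cells at 48 h and 21.7 and 20.7 FPKM in knockout 2iL cells, against 0.0256 and 0.0422 FPKM in wild-type cells at 48 h and 4.96 and 4.04 FPKM in wild-type 2iL cells (interaction −1.78, SE 0.14, adjusted p = 9.8e-05). Lef1 and Tcf7 (−0.83) and the feedback inhibitor Nkd2 (−1.67) rose in wild type with no call in the knockout. Notum was the single higher member, and Tcf7l1, the repressive TCF, was not called (−0.24, adjusted p = 0.13).

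In the NODAL and BMP group, 7 of 15 members were called higher and 4 lower (median 0.35). Among all genes tested 21.1% were higher and 21.7% lower. Nodal itself measured 29.5 and 29.7 FPKM in knockout cells at 48 h and 32.7 and 34.7 FPKM in knockout 2iL cells, against 5.36 and 4.47 FPKM in wild-type cells at 48 h and 24.1 and 24.8 FPKM in wild-type 2iL cells. It fell in wild type with no call in the knockout (interaction 1.93, SE 0.11, adjusted p = 2.2e-05). Id1, a BMP target, measured 8.51 and 6.73 FPKM in knockout cells at 48 h and 3.34 and 4.14 FPKM in knockout 2iL cells, against 1.501 and 1.802 FPKM in wild-type cells at 48 h and 9.72 and 10.7 FPKM in wild-type 2iL cells. It fell in wild type and rose in the knockout (interaction 2.94, SE 0.19, adjusted p = 3.9e-05), whereas its relative Id2 rose in both genotypes and further in wild type (−0.93), a call lost with a pseudocount of 5. Lefty2 had an interaction of 2.43 and its paralog Lefty1 was not called (0.28, adjusted p = 0.41). Skil, a SMAD corepressor, was called lower (−0.88).

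Notch and proneural genes gave 5 higher and 3 lower of 12 (median 0.08), against 21.1% higher and 21.7% lower among all genes tested. The ligand gene Dll1 measured 16.9 and 16.2 FPKM in knockout cells at 48 h and 0.175 and 0.149 FPKM in knockout 2iL cells, against 7.24 and 5.41 FPKM in wild-type cells at 48 h and 0.529 and 0.766 FPKM in wild-type 2iL cells. It rose in both genotypes and further in the knockout (interaction 1.77, SE 0.19, adjusted p = 3.6e-04), as did Hes6 (1.44) and Neurod1. The ligand genes Jag2 (−0.86) and Dll3 (−0.70) rose further in wild type, and Dll3 was no longer called with a pseudocount of 0.1. Hes1, the classical Notch target, was not called (−0.14, adjusted p = 0.67).

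Reported miR-290/302 targets were called about as often as all genes, 6 of 14 (42.9%, against 42.8% of all tested), 5 higher and 1 lower, with a median of 0.29. The higher members were Lefty2, Ei24 (1.1), the pocket protein Rbl2 (0.87), Cdkn1a (0.76) and Bambi (0.35). The call of Bambi was lost when any 1 library was left out. Akt1, the kinase of the PI3K pathway, measured 18.5 and 19.6 FPKM in knockout cells at 48 h and 23.3 and 24.97 FPKM in knockout 2iL cells, against 24.1 and 25.4 FPKM in wild-type cells at 48 h and 15.3 and 15.5 FPKM in wild-type 2iL cells. It rose in wild type and fell in the knockout (interaction −0.98, SE 0.08, adjusted p = 1.2e-04), so that the knockout was above wild type in 2iL and below it at 48 h. Casp2 (−0.01), Lats2 (0.29), Irf2 (−0.11), Mbd2 (−0.15) and Tgfbr1 (0.15) were not called, with adjusted p-values of 0.91, 0.23, 0.55, 0.45 and 0.26 in that order.

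Among PI3K/AKT components, 7 of 20 were called lower and 3 higher (median −0.05), against 21.7% lower and 21.1% higher among all genes tested. Beside Akt1, Akt2 was not called (−0.04, adjusted p = 0.65). The catalytic subunit gene Pik3cb fell in wild type and rose in the knockout (interaction 1.01, SE 0.08, adjusted p = 1.0e-04).

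The p53 response list leaned higher, with 11 of 15 called higher and 2 lower (median 0.52), against 21.1% higher and 21.7% lower among all genes tested. Btg2, an antiproliferative gene, measured 56.5 and 57.8 FPKM in knockout cells at 48 h and 18.1 and 19.3 FPKM in knockout 2iL cells, against 8.36 and 8.26 FPKM in wild-type cells at 48 h and 8.42 and 8.39 FPKM in wild-type 2iL cells. It rose in the knockout with no call in wild type (interaction 1.58, SE 0.07, adjusted p = 9.3e-06). Perp (1.42) rose further in the knockout, Mdm2 (0.63) and Zmat3 (0.63) rose in the knockout with no call in wild type, and Trp53 itself fell in wild type with no call in the knockout (0.52). Of the 2 members called lower, the larger interaction was that of Pmaip1 (Noxa), which measured 39.1 and 40.3 FPKM in knockout cells at 48 h and 13.7 and 15.1 FPKM in knockout 2iL cells, against 58.4 and 63.02 FPKM in wild-type cells at 48 h and 4.74 and 3.56 FPKM in wild-type 2iL cells. It rose in both genotypes and far more in wild type (interaction −2.19, SE 0.15, adjusted p = 5.8e-05).

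G1/S regulators were called at the rate of all genes, 8 of 19 (42.1%), with 6 higher and 2 lower (median 0.09). The CDK inhibitor gene Cdkn2b measured 10.5 and 10.4 FPKM in knockout cells at 48 h and 3.51 and 2.93 FPKM in knockout 2iL cells, against 1.95 and 1.81 FPKM in wild-type cells at 48 h and 2.32 and 1.83 FPKM in wild-type 2iL cells. It rose in the knockout with no call in wild type (interaction 1.54, SE 0.15, adjusted p = 2.7e-04). Cdkn1a fell in both genotypes and more in wild type. The cyclins Ccnd1 (−0.02), Ccnd2 (−0.31) and Ccnd3 (0.08) were not called. DNA replication genes were called at a similar rate, 9 of 21 (42.9%), with none reaching an interaction of 1 and the largest at Mcm5 (0.55).

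Among reported let-7 targets, 5 of 13 were called higher and 6 lower (median −0.31), against 21.1% higher and 21.7% lower among all genes tested. The RNA-binding protein gene Lin28b measured 5.697 and 5.51 FPKM in knockout cells at 48 h and 4.18 and 4.04 FPKM in knockout 2iL cells, against 13.2 and 14.03 FPKM in wild-type cells at 48 h and 4.35 and 4.03 FPKM in wild-type 2iL cells. It rose in both genotypes and further in wild type (interaction −1.12, SE 0.10, adjusted p = 1.7e-04), the opposite of Lin28a. Hmga2 (−0.93) and Dusp9 (−1.32) rose in wild type with no call in the knockout, and Trim71 fell in wild type and rose in the knockout (0.81).

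Cholesterol synthesis genes were called lower in 13 of 20 and higher in 1, with a median of −0.56, against 21.7% lower and 21.1% higher among all genes tested. Hmgcs1, which makes the HMG-CoA that enters the pathway, measured 85.6 and 83.7 FPKM in knockout cells at 48 h and 96.9 and 103 FPKM in knockout 2iL cells, against 178 and 176 FPKM in wild-type cells at 48 h and 84.2 and 77.2 FPKM in wild-type 2iL cells. Pmvk, a kinase of the mevalonate branch, measured 20.4 and 19.5 FPKM in knockout cells at 48 h and 24.8 and 25.3 FPKM in knockout 2iL cells, against 69.7 and 66.5 FPKM in wild-type cells at 48 h and 37.8 and 35.5 FPKM in wild-type 2iL cells. In both genes wild type at 48 h was the high group, and the knockout libraries at 48 h lay below those in 2iL. The list median of the 48 h change was −0.22 in the knockout and 0.56 in wild type, and 6 members changed in opposite directions. The interaction was −1.36, SE 0.07, adjusted p = 1.9e-05 for Hmgcs1, −1.19 for Pmvk, −1.24 for Msmo1, −1.22 for Sc5d and −0.41 for Srebf2, the transcription factor of the pathway. Ebp, a sterol isomerase, was the single higher member (0.94), and Idi1 (0.01) and Insig1 (−0.02) were not called.

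Genes of the actin cytoskeleton and of the SRF pathway were mostly lower in the interaction, with 11 of 17 called lower and 5 higher (median −0.75), against 21.7% lower and 21.1% higher among all genes tested. Smooth-muscle type members stood out beside Myl9. The actin-binding protein gene Tagln measured 0.902 and 0.928 FPKM in knockout cells at 48 h and 0.171 and 0.345 FPKM in knockout 2iL cells, against 9.02 and 9.38 FPKM in wild-type cells at 48 h and 0.385 and 0.406 FPKM in wild-type 2iL cells, and its interaction was −2.26, SE 0.14, adjusted p = 3.1e-05. Calponin Cnn1 (−2.12) and tropomyosin Tpm2 (−1.91) also rose further in wild type. Acta2 was listed at 0 in all knockout and all wild-type 2iL libraries and measured 2.58 and 1.93 FPKM in wild type at 48 h. Srf itself measured 10.4 and 10.7 FPKM in knockout cells at 48 h and 9.57 and 10.04 FPKM in knockout 2iL cells, against 29.6 and 30.9 FPKM in wild-type cells at 48 h and 12.02 and 11.1 FPKM in wild-type 2iL cells. It rose in wild type with no call in the knockout (interaction −1.22, SE 0.09, adjusted p = 6.0e-05). Higher members were Ccn2 (1.46), Ccn1 (1.21), Cnn3 (0.76), Tagln2 (0.64) and the housekeeping actin Actb (0.47). Tagln is also a fibroblast marker, and the fibroblast and feeder list summed to 19.7 to 20.1 FPKM in the knockout at 48 h and 2.52 to 2.56 in 2iL, against 21.7 to 21.9 in wild type at 48 h and 3.09 to 3.36 in 2iL. Of its 11 genes, 8 stayed under 1 FPKM in all libraries, among them Col1a1, Col1a2 and Col3a1. The other members differed in direction: Dcn, a matrix proteoglycan, measured 11.9 and 12.6 FPKM in knockout cells at 48 h and 0.0372 and 0 FPKM in knockout 2iL cells, against 2.22 and 1.74 FPKM in wild-type cells at 48 h and 0 and 0 FPKM in wild-type 2iL cells. It rose in both genotypes and further in the knockout (interaction 2.13, SE 0.15, adjusted p = 5.5e-05), the opposite of Tagln, and Thy1 was not called (−0.14). The part of such cells in the actin values was not tested.

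All 14 measured annexin and S100 genes were called, 11 higher and 3 lower (median 1.12), against 21.1% higher and 21.7% lower among all genes tested. Annexins are calcium-dependent membrane-binding proteins, and some of the small S100 proteins are partners of them. Anxa2 measured 117 and 114 FPKM in knockout cells at 48 h and 26.9 and 31.4 FPKM in knockout 2iL cells, against 2.67 and 2.92 FPKM in wild-type cells at 48 h and 5.95 and 5.85 FPKM in wild-type 2iL cells. Its partner S100a10 measured 57.4 and 53.9 FPKM in knockout cells at 48 h and 24.6 and 26.9 FPKM in knockout 2iL cells, against 19.5 and 20.4 FPKM in wild-type cells at 48 h and 72.1 and 73.5 FPKM in wild-type 2iL cells. Both fell in wild type and rose in the knockout, and the Anxa2 levels of the genotypes did not overlap at either time. The interaction was 2.82, SE 0.11, adjusted p = 5.6e-06 for Anxa2 and 2.90, SE 0.08, adjusted p = 1.4e-06 for S100a10. S100a11 fell in wild type with no call in the knockout (2.59), Anxa6 fell in wild type and rose in the knockout (1.93), and S100a1 rose in wild type and fell in the knockout (−2.49).

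Epithelial and mesenchymal genes were called 6 higher and 6 lower of 18 (median 0.11), against 21.1% higher and 21.7% lower among all genes tested. The intermediate filament gene Vim measured 522 and 531 FPKM in knockout cells at 48 h and 606 and 662 FPKM in knockout 2iL cells, against 36.8 and 35.1 FPKM in wild-type cells at 48 h and 359 and 347 FPKM in wild-type 2iL cells. It fell in both genotypes and much more in wild type (interaction 2.99, SE 0.07, adjusted p = 1.2e-06), as did fibronectin Fn1 (1.55). The junction genes Cldn7 (−2.33) and Ocln (−0.78) rose further in wild type, Cldn3 rose in wild type and fell in the knockout (−2.40), and E-cadherin Cdh1 rose in wild type with no call in the knockout (−0.61). Zeb1, a repressor of epithelial genes, fell in wild type with no call in the knockout (0.96), and Krt8 (0.10) and Krt18 (0.18) were not called.

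Germline genes were called in 13 of 14, 8 lower and 5 higher (median −1.13), against 21.7% lower and 21.1% higher among all genes tested. The largest interaction of the list in size was a higher one, that of Rhox5 (2.52), and Tfap2c (1.35) was also called higher. Sycp3 (−1.65) of the synaptonemal complex and the helicase gene Ddx4 (−1.22) rose in wild type with no call in the knockout. Dazl, an RNA-binding protein of germ cells, measured 3.02 and 2.38 FPKM in knockout cells at 48 h and 7.23 and 7.35 FPKM in knockout 2iL cells, against 1.05 and 1.31 FPKM in wild-type cells at 48 h and 1.02 and 1.198 FPKM in wild-type 2iL cells. It fell in the knockout with no call in wild type (interaction −1.21, SE 0.16, adjusted p = 0.001), as did Rhox6 (−1.17) and Rhox9 (−1.39). Of the 5 measured genes of the 2-cell-like state, out of 14 listed, 4 were called lower and none higher (median −0.70). The shares among all genes tested were 21.7% lower and 21.1% higher. Zscan4f stood at −1.12, and Zscan4 paralogs share reads and are not independent.

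Imprinted genes were called 8 lower and 4 higher of 21 (median −0.14), against 21.7% lower and 21.1% higher among all genes tested. Grb10, a growth factor receptor adaptor, measured 9.26 and 8.49 FPKM in knockout cells at 48 h and 11.7 and 12.7 FPKM in knockout 2iL cells, against 66.1 and 73.9 FPKM in wild-type cells at 48 h and 22.9 and 23.3 FPKM in wild-type 2iL cells. It rose in wild type and fell in the knockout (interaction −1.98, SE 0.10, adjusted p = 1.6e-05), as did Igf2r (−1.64). Peg10 (−1.44) and Dlk1 (−1.46) rose further in wild type, and Mest rose further in the knockout (1.33). Rian (0.31) and Mirg (−0.14) were not called although their knockout minus wild-type differences in 2iL were −2.97 and −1.87. Polycomb genes were called 9 higher and 4 lower of 18 (median 0.19), against 21.1% higher and 21.7% lower among all genes tested. Fewer were called higher when knockout 48 h replicate 1, wild-type 48 h replicate 1 or wild-type 2iL replicate 2 was left out. The PRC2 accessory factor Phf19 rose further in the knockout (interaction 1.98, SE 0.14, adjusted p = 5.9e-05), Eed fell further in wild type (0.95), and Ezh2 (0.10) was not called.

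Glycolysis genes were called 6 higher and 3 lower of 18 (median 0.03), against 21.1% higher and 21.7% lower among all genes tested. They were led by the glucose transporter Slc2a3 (1.17) and the hexokinase Hk1 (1.03), both of which fell further in wild type. Ldha (−0.09), Slc2a1 (−0.10) and Aldoa (−0.04) were not called. Of the miRNA pathway, 3 of 12 were called higher and 4 lower (median −0.04), against the same shares of all genes tested. Fewer were called higher without any 1 of 7 libraries, all but wild-type 2iL replicate 2. Prkra, a partner of Dicer, rose in wild type with no call in the knockout (interaction −1.13, SE 0.16, adjusted p = 0.0013), and Drosha (−0.09) and Dicer1 (0.02) were not called. Housekeeping genes were called 5 higher and 1 lower of 12, against 21.1% higher and 21.7% lower among all genes tested. None had an interaction of 1 or more (median 0.17), and the largest was B2m (−0.91).

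**Figure D5:**
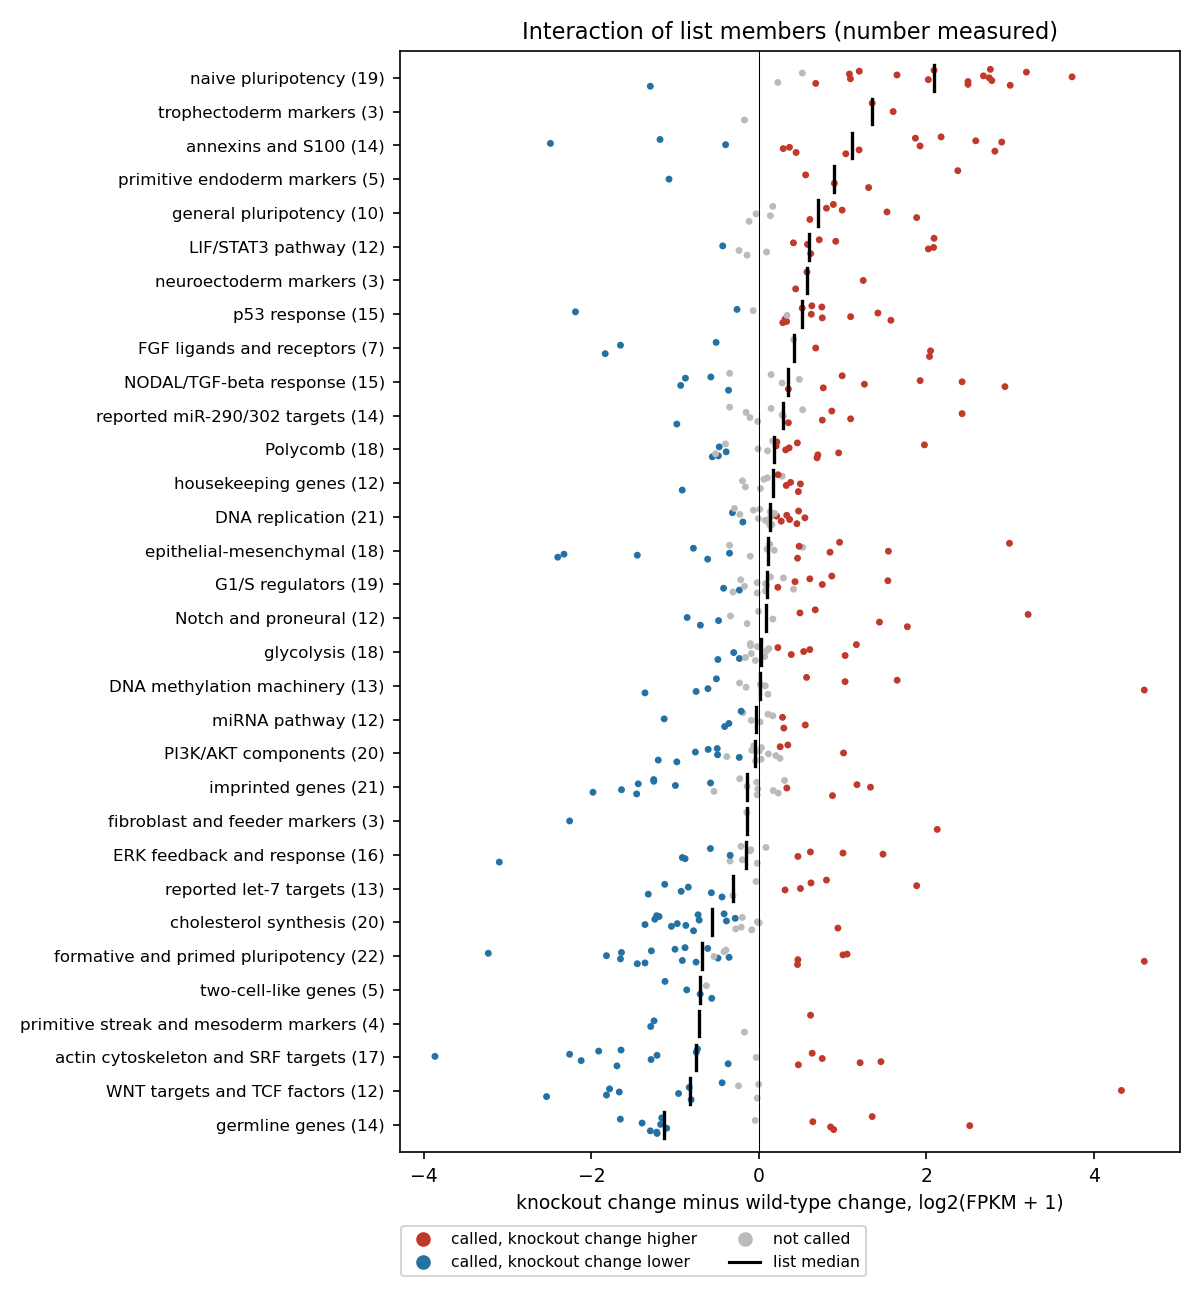
Interaction of every measured member of the 32 gene lists, in log2(FPKM + 1) units, with 1 point per gene, colours for the call and direction, and a black bar at the list median; lists are ordered by their median. The naive list has the highest median (2.09) and the germline list the lowest (−1.13), against −0.01 over all genes tested.

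Markers of other lineages were mostly absent. Of the primitive endoderm list, Gata4, Gata6, Sox17, Sox7, Foxa2, Hnf4a and Pdgfra stayed under 1 FPKM in all libraries. Of the 5 measured members 4 were called higher, led by Sparc (2.38), a matrix protein not restricted to endoderm. The other, Dab2, was called lower (−1.07), at 0.372 and 0.200 FPKM in the knockout at 48 h, against 1.63 and 2.32 in wild type. Among all genes tested 21.1% were higher and 21.7% lower. The list summed to 208 to 209 FPKM in the knockout at 48 h and 108 FPKM in both 2iL libraries, against 54.1 to 56.7 in wild type at 48 h and 129 to 133 in 2iL. Most of each sum was Sparc, with 193 and 191 FPKM in the knockout at 48 h, against 43.2 and 44.5 in wild type. The 3 measured neuroectoderm genes were called higher, with interactions of 1.25 for Pax6, 0.58 for Sox1 and 0.44 for Nes. With a pseudocount of 5 only 1 of them, Pax6, was called higher, and in FPKM units Nes rose further in wild type. Sox1 also lost its call without knockout 48 h replicate 2, knockout 2iL replicate 2, wild-type 48 h replicate 1 or wild-type 2iL replicate 1. Nes measured 13.4 and 14.2 FPKM in knockout cells at 48 h and 2.65 and 2.71 FPKM in knockout 2iL cells, against 21.9 and 21.5 FPKM in wild-type cells at 48 h and 6.63 and 6.74 FPKM in wild-type 2iL cells. The neuroectoderm list summed to 21.7 to 23.6 FPKM in the knockout at 48 h and 6.57 to 6.69 in 2iL, against 26.3 to 26.99 in wild type at 48 h and 10.1 to 10.2 in 2iL. The streak genes Evx1 (−1.29) and Gsc (−1.25) fell further in the knockout, calls lost with a pseudocount of 0.1. T, Mixl1 and Mesp1 stayed under 1 FPKM, and that list summed to 5.12 to 5.32 FPKM in the knockout at 48 h and 14.7 to 15.8 in 2iL, against 1.51 to 1.91 in wild type at 48 h and 4.55 to 4.88 in 2iL. Trophectoderm genes Cdx2 and Elf5 stayed under 1 FPKM, and of the 3 measured members Gata3 (1.6) and Tfap2c (1.35) were called higher. Tfap2c fell in both genotypes, to 7.35 and 7.09 FPKM in the knockout at 48 h and to 1.19 and 0.897 in wild type. Gata3 measured 1.62 and 1.56 FPKM in the knockout at 48 h and was under 1 FPKM in every other library. The trophectoderm list summed to 10.5 to 10.9 FPKM in the knockout at 48 h and 33.4 to 36.5 in 2iL, against 3.22 to 3.47 in wild type at 48 h and 21.4 to 21.6 in 2iL. The part of such cells in the results above was not tested.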

How the data were processed

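PolyA RNA of Dgcr8-/- and wild-type mouse embryonic stem cells was measured at 48 h of differentiation and in 2iL, with 2 libraries per group. FPKM values were computed by the authors and deposited in a single table, and the deposited signal of the wild-type small RNA libraries was taken as a share of each library's sum. The submitters' processing notes name STAR 2.5.0 and Cufflinks 2.2.1, without saying what each was used for. The read depth is not given in the sources used here. What was repeated between replicates is not stated, so p-values measure the spread between these libraries.

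Of 41258 table entries, 56 repeat an identifier and were kept as entries of their own. Entries that reached 1 FPKM in 2 or more libraries were tested on log2(FPKM + 1) with limma 3.58.1 in R 4.3.3. The fit had 4 group means and a mean-variance trend, and the interaction was a contrast of these means with Benjamini-Hochberg adjustment at 0.05. Differences are on that scale and understate changes of low genes. All 4 groups shared 1 estimate of the spread, with 4 residual degrees of freedom. The genes printed in full were the 3 with the largest interaction in each of 10 classes, called, of size at least 1 and with a group mean of at least 5 FPKM, leaving out small noncoding RNAs, unnamed transcripts (Gm, Rik), pseudogenes and H2- genes. Called list members with the largest interactions and defining members were also named, apart from some results not reported here. The fit was tested on simulated data. Members, gene lists and tests were chosen with earlier results of these data known, so no list count is independent support. Of the 507 list entries, genes under the filter are in no count. Rb1 of the G1/S list, with 8.25 FPKM in its highest library, is in no count either.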

Additional observations from a re-analysis of the deposited data

Results flagged for a closer look

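The interaction was itself tested, and 5641 genes passed. Every gene printed by the naming rule is flagged for this reason, and each kept its sign and its call under every alternative in which it was tested. The positive interactions were 5.08 for Tgm1, 4.72 for Aire, 4.60 for Dnmt3l, 4.33 for Notum, 3.74 for Nr0b1, 3.53 for Laptm5, 3.48 for Manba, 3.29 for Edn2, 3.22 for Neurod1, 3.21 for Sult6b1, 3.19 for Klk10, 3.0 for Msln, 2.94 for Hes3 and 2.79 for Krt19. The negative ones were −4.86 for Car4, −4.74 for Tmem54, −3.95 for Tmem181a, −3.87 for Myl9, −3.30 for Vegfa, −3.18 for Rab25, −3.06 for Foxd1, −2.83 for Chd3, −2.80 for Kcnk1, −2.80 for Pkdcc, −2.76 for Tspan7, −2.65 for Slc16a9, −2.53 for Cdx1, −2.51 for Grin1 and −2.22 for AA467197.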

How the results depend on the processing

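With a pseudocount of 5, 569 genes reached an interaction of 1, and the interaction of Prdm14 was −0.051. A mean of at least 5 FPKM, which tests fewer genes, left 3612 called, 1607 of them lower, and 800 of size 1 or more; the classes held 1201 (wild type alone), 746 (knockout alone), 335 (same direction, more in the knockout) and 72 (neither), and the genotype difference was called at 48 h alone in 921, in 2iL alone in 528 and at neither time in 20. That last class held 76 genes with no filter and 49 without the variance trend, and the cause was not tested. Leaving out each library in turn, with the lone sample of its group assumed to vary like the others, gave 4115 to 5266 called genes, 1907 to 2809 lower and 1484 to 1664 of size 1 or more. Over the same fits, 1288 to 2056 genes changed in wild type alone, 298 to 491 moved the same way and more in the knockout, 1117 to 1843 differed at 48 h alone and 351 to 683 had a narrower difference at 48 h. Replicate numbers are not taken to pair samples, since replicate differences correlated between groups at −0.153 to 0.18. With the replicate number as a block, 5364 genes were called, 5244 of them also without it. The share of called genes that were higher was 49.3% in the main analysis, 52.4% with median-ratio scaling and 49% after quantile normalization. Among genes named, calls changed under some alternative for Bambi, Ccnd2, Cldn6, Dll3, Evx1, Gsc, Sfrp2, Tbx3, Dusp6, Grhl2, Id2, Lats2, Mirg, Prdm14, Sall2, Sox3, Rian, Utf1, Ldha, Nes, Sox1, Thy1 and Tcf7l1. Some list counts also moved: without 1 library, DNA replication genes called lower numbered 0 to 4, and 1 neuroectoderm gene was called higher with a pseudocount of 5. With 2 libraries per group and 1 line per genotype, small differences are limited by the replicate spread, and read depth is unknown.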

Other observations

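The genes below were chosen after their values were seen. The vascular growth factors moved apart from each other: while Vegfa was lower in the knockout at 48 h, Vegfc, the growth factor of lymphatic vessels, measured 17.1 and 14.8 FPKM in knockout cells at 48 h and 8.25 and 8.11 FPKM in knockout 2iL cells, against 0.867 and 1.22 FPKM in wild-type cells at 48 h and 9.68 and 10.5 FPKM in wild-type 2iL cells, with an interaction of 3.33, SE 0.15, adjusted p = 8.7e-06. Bmp4, a ligand known to support self-renewal together with LIF, measured 0.839 and 0.701 FPKM in knockout cells at 48 h and 1.798 and 1.202 FPKM in knockout 2iL cells, against 0.406 and 0.502 FPKM in wild-type cells at 48 h and 10.8 and 9.47 FPKM in wild-type 2iL cells. It was under 1 FPKM in both genotypes at 48 h, and the interaction was 2.45, SE 0.19, adjusted p = 8.7e-05. The genotype difference widened for Lgals3, a galactose-binding lectin, which measured 42.1 and 40.2 FPKM in knockout cells at 48 h and 47.9 and 55.3 FPKM in knockout 2iL cells, against 0.781 and 0.447 FPKM in wild-type cells at 48 h and 17.8 and 17.3 FPKM in wild-type 2iL cells (interaction 3.21, SE 0.15, adjusted p = 1.1e-05).

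Most large changes were also called for the interaction. Of 1210 genes with a called change of at least 1 log2 unit in the knockout, 887 (73.3%) were called for the interaction. Of 1832 such genes in wild type, 1465 (80%) were, against 42.8% of all genes tested. The interaction is the difference of these same changes, so a higher share follows in part from the choice of large changes. A change of that size was called in both genotypes for 579 genes, 544 in the same direction and 35 in opposite directions.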
